A study of Homo sapiens with 12 samples.

Results

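The 9 genes described here are *TNFSF10*, which encodes the death ligand TRAIL, the TRAIL receptor genes *TNFRSF10A*, *TNFRSF10B* and *TNFRSF10D*, the related receptor gene *FAS*, the caspase-8 gene *CASP8*, its regulator *CFLAR*, and the inhibitor of apoptosis (IAP) genes *BIRC2* and *BIRC3*. They were chosen by symbol from the 39368 symbols listed in the count table of each cell line, and all 9 were found in both tables. The RNA-seq libraries came from CAL27 and HSC3 cells, established HPV-negative head and neck squamous cell carcinoma (HNSCC) lines that carried a doxycycline-inducible shRNA against *MUC1* (tet-MUC1shRNA) in a puromycin-selected vector. Each line was treated for 7 days with vehicle (0.1% DMSO) or with 500 ng/ml doxycycline (DOX), and 3 libraries were made for each of the 4 groups. The vehicle cells carried the same vector as the DOX cells. CAL27 cells were grown in DMEM and HSC3 cells in MEM. The 12 libraries include none from cells with a control shRNA, so silencing of *MUC1* and DOX itself cannot be told apart in them. The study reports that in CAL27 cells with an inducible control shRNA, DOX changed MUC1-C and colony formation little, if at all. That check did not cover the RNA levels described here.

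TRAIL binds TNFRSF10A (DR4) and TNFRSF10B (DR5), whose death domains recruit the adaptor FADD and caspase-8 into a signaling complex that starts apoptosis, and FAS acts in the same way for its own ligand. TNFRSF10D (DcR2) binds TRAIL with a truncated death domain and serves as a decoy. CFLAR (c-FLIP) resembles caspase-8 without its protease activity and controls caspase-8 activation in the complex. BIRC2 (cIAP1) and BIRC3 (cIAP2) are ubiquitin ligases that act at TNF family receptors, where they direct signaling to NF-κB and away from cell death. *TNFSF10* is known as an interferon-stimulated gene and *BIRC3* as an NF-κB target.

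Promoters of the ligand gene and of *BIRC3* are shown because these genes had the largest fold changes with DOX among the 9 in both lines. The sequences are from RefSeq on GRCh38.p14, run from base -250 to base -51 before the annotated start on the strand of the gene, and lie at chr3:172523481-172523680 (minus strand) for *TNFSF10* and at chr11:102317234-102317433 (plus strand) for *BIRC3*. Capitals mark a match to the interferon-stimulated response element (ISRE) core in *TNFSF10* and 2 matches to the NF-κB consensus in *BIRC3*.
TNFSF10: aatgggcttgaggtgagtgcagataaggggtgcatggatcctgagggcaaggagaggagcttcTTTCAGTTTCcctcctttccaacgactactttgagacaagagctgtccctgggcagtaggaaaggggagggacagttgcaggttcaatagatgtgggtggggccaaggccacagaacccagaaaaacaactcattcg
BIRC3: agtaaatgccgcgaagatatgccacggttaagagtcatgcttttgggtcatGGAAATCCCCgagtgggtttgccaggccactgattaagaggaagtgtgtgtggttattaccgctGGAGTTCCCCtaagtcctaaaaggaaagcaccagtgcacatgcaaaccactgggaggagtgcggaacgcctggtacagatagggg

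Both strands of 300-base windows around annotated starts were searched for the ISRE core GAAANNGAAA, the GAS core TTCNNNGAA and the NF-κB consensus. Windows on chromosome 8, where *TNFRSF10A*, *TNFRSF10B* and *TNFRSF10D* lie, were left out, so the promoters of these genes were not searched. The other 6 of the 9 genes had 14 windows in all. The ISRE match in *TNFSF10* begins at base -187 and reads on the strand opposite to the gene, and the NF-κB matches in *BIRC3* begin at bases -199 and -135, also on the opposite strand. *CFLAR* held an NF-κB match in 1 of its 4 windows, at base -97, and *FAS* held one in 1 of its 3 windows, at base -157. *CASP8* held an ISRE core at base -3, opposite to the gene, and a GAS core at base -200 in 1 of 3 windows, and the 2 windows of *BIRC2* held none of these letters. Of all 35116 RefSeq windows of this length, 3.57% held the ISRE core, 7.66% the GAS core and 5.91% the NF-κB consensus. A match describes letters in a window and does not show that a factor was bound there.

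Library totals ran from 89730914 to 169065103 counts. *MUC1*, the target of the shRNA, had 5753 to 8062 counts in the CAL27 vehicle libraries against 285 to 419 in the DOX libraries, and 162 to 196 counts against 16 to 46 in HSC3. All 8 squamous epithelial markers were above a mean of 1 CPM (counts scaled to a common library size) in every group. Their summed level lay between 6100 and 6360 CPM in the CAL27 vehicle libraries and between 3070 and 3280 CPM in the DOX libraries. In HSC3 it lay between 5980 and 6650 CPM with vehicle and between 2840 and 3310 CPM with DOX. The fibroblast, leukocyte and endothelial lists, each summed separately, reached at most 15.4 CPM in any library. The number of counts that each captured molecule gave was estimated at 2.45 to 3.33 in CAL27 libraries, at 4.18 to 7.43 in HSC3 vehicle libraries and at 8.93 to 17.2 in HSC3 DOX libraries. This estimate takes replicates to differ by sampling alone, so other differences between them can raise it. The highest value, 17.2, was that of HSC3 DOX replicate 1. HSC3 DOX replicate 1 differed most from its replicates, with a chi-square per degree of freedom of 141 and 90.9 against 23.2 between the other 2. Results that changed without it are given beside their values, and the part of depth and of the marker shift in the results was not tested.

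*TNFSF10*, on chromosome 3 from 172505508 to 172523475 (GRCh38, GENCODE v44), was lower with DOX in both lines. Levels are CPM after TMM scaling over all 12 libraries. In CAL27 cells *TNFSF10* was at 379, 372 and 414 CPM in the vehicle libraries and at 75.7, 55.4 and 45.6 CPM in the DOX libraries (means 388 ± 22.4 and 58.9 ± 15.3, SD, n = 3). In HSC3 cells it was at 27.7, 28.1 and 24.9 CPM with vehicle and at 12.3, 7.94 and 8.05 CPM with DOX (means 26.9 ± 1.72 and 9.43 ± 2.49, SD, n = 3). Every DOX library was below every vehicle library of its line, and every CAL27 DOX library was still above every HSC3 vehicle library. The fall was 6.62-fold in CAL27 cells (log2 fold change -2.73, SE 0.22, adjusted p = 0.00062) and 2.86-fold in HSC3 cells (log2 fold change -1.52, SE 0.16, adjusted p = 4.3e-05). Unless DESeq2 is named, adjusted p values here are from edgeR's quasi-likelihood test and were adjusted by Benjamini-Hochberg across every gene in the fit, and a gene was called at an adjusted p under 0.05. The sample titles number 3 replicates per group, and the study's methods describe triplicate cultures. The p values measure the spread among these libraries. In RNA from whole cultures, fewer cells with a transcript and less of it per cell cannot be told apart.

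**Figure D1:**
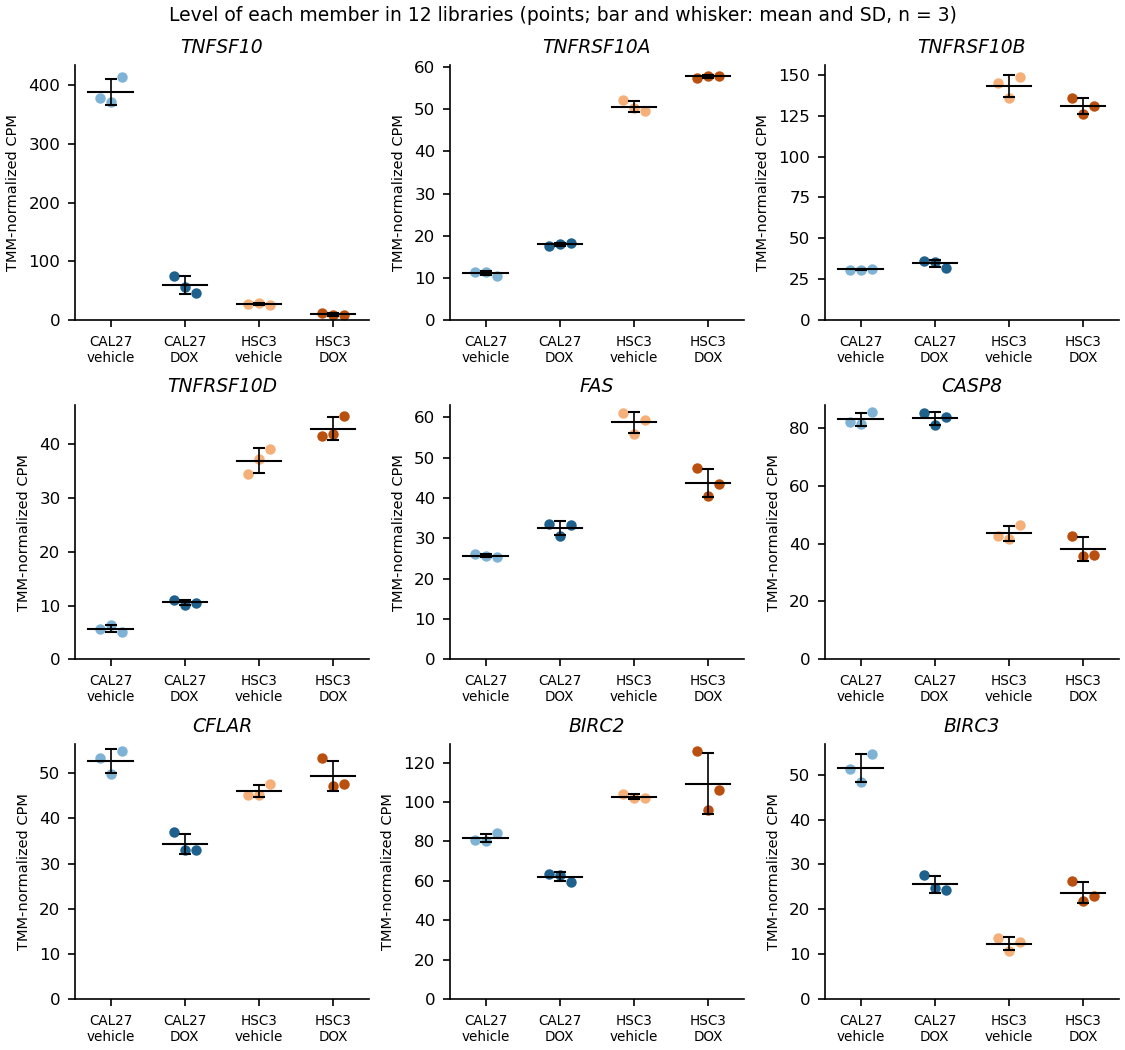
Level of each of the 9 genes in TMM-normalized CPM (vertical axis, linear, from 0) in the 12 libraries, grouped by cell line and treatment. Points are libraries, bars are means and whiskers are SD (n = 3). *TNFSF10* stood at 372 to 414 CPM in CAL27 vehicle libraries and at most at 75.7 CPM in all others, while *TNFRSF10A*, *TNFRSF10B*, *TNFRSF10D* and *FAS* were higher in every HSC3 library than in every CAL27 library.

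The TRAIL receptor genes rose with DOX in CAL27 cells. They lie in 1 stretch of chromosome 8, with *TNFRSF10C* between *TNFRSF10B* and *TNFRSF10D*, at positions 23190452 to 23225102 for *TNFRSF10A*, 23020133 to 23069031 for *TNFRSF10B* and 23135588 to 23164027 for *TNFRSF10D* (GRCh38, GENCODE v44, all on the minus strand). *TNFRSF10A*, which encodes the death receptor DR4, was at 11.4, 11.3 and 10.5 CPM with vehicle and at 17.5, 18.0 and 18.3 CPM with DOX in CAL27 cells, a 1.62-fold rise (log2 fold change 0.69, SE 0.062, adjusted p = 1.7e-08). The decoy gene *TNFRSF10D* was at 5.66, 6.39 and 5.04 CPM with vehicle and at 11.1, 10.1 and 10.5 CPM with DOX, a 1.85-fold rise (log2 fold change 0.89, SE 0.089, adjusted p = 7.1e-08). The groups did not overlap for either gene. *TNFRSF10B*, which encodes DR5, moved least, from 30.6, 30.8 and 31.4 CPM to 36.4, 35.5 and 32.1 CPM (log2 fold change 0.16, SE 0.052, adjusted p = 0.015). That call was lost without vehicle replicate 1 or 2 or DOX replicate 4 or 5, where the adjusted p was 0.071 to 0.079, and also when all 12 libraries were fitted together (adjusted p = 0.056).

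In HSC3 cells none of the TRAIL receptor genes passed the test. *TNFRSF10A* was at 52.2, 50.2 and 49.5 CPM with vehicle and at 57.5, 58.0 and 57.9 CPM with DOX (log2 fold change 0.19, 95% interval 0.04 to 0.34, adjusted p = 0.063). *TNFRSF10D* was at 34.4, 37.1 and 39.0 CPM and at 41.5, 41.7 and 45.2 CPM (log2 fold change 0.21, 95% interval 0.03 to 0.39, adjusted p = 0.079). *TNFRSF10B* was at 145, 136 and 149 CPM and at 136, 126 and 131 CPM (log2 fold change -0.14, 95% interval -0.28 to 0.00, adjusted p = 0.14). The groups did not overlap for these genes, though for *TNFRSF10B* the lowest vehicle and the highest DOX library were equal to 3 digits. Without HSC3 DOX replicate 1 all of them were called, with *TNFRSF10A* at 0.20 (adjusted p = 0.019), *TNFRSF10D* at 0.24 (adjusted p = 0.016) and *TNFRSF10B* at -0.16 (adjusted p = 0.024) on the log2 scale. *TNFRSF10A* also passed under DESeq2 (adjusted p = 0.033) and in 1 fit over 12 libraries (adjusted p = 0.015).

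The remaining TRAIL receptor gene, *TNFRSF10C*, encodes the decoy DcR1 and is not among the 9. It had at most 16 counts in any library, was at 0 counts in HSC3 vehicle replicate 3 and HSC3 DOX replicate 1, and was not tested. Reads could be shared between neighbouring or opposite genes in some of the receptor counts. Exons of *TNFRSF10C* overlapped same-strand genes over 33.0% of their length, and the part of this overlap in its low counts was not tested. Exons of *TNFRSF10A* overlapped opposite-strand genes over 16.7% of their length (TNFRSF10A-AS1 and TNFRSF10A-DT), and exons of *TNFRSF10B* over 7.52% (RHOBTB2). The kit marks strand, but the use of strand in counting is not given in the sources used here.

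*FAS*, on chromosome 10 from 88953813 to 89029605, was called in opposite directions in the lines. In CAL27 cells it was at 26.1, 25.7 and 25.5 CPM with vehicle and at 33.7, 30.7 and 33.4 CPM with DOX, a 1.26-fold rise (log2 fold change 0.34, SE 0.050, adjusted p = 1.3e-05). In HSC3 cells it was at 61.0, 56.0 and 59.4 CPM with vehicle and at 47.5, 40.6 and 43.4 CPM with DOX, a 1.35-fold fall (log2 fold change -0.43, SE 0.080, adjusted p = 0.0021). The groups did not overlap in either line. Exons of *FAS* overlapped opposite-strand genes, among them ACTA2, over 6.48% of their length.

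*CASP8*, the initiator caspase of the complex, lies on chromosome 2 from 201233443 to 201361836, on the same chromosome as *CFLAR* (201116154 to 201176687). It did not pass the test in either line. *CASP8* was at 81.9, 81.3 and 85.3 CPM with vehicle and at 84.9, 80.8 and 83.8 CPM with DOX in CAL27 cells, where the groups overlapped and the 95% interval of the log2 fold change was -0.08 to 0.09. In HSC3 cells it was at 42.7, 41.4 and 46.5 CPM and at 42.7, 35.7 and 35.9 CPM (log2 fold change -0.20, 95% interval -0.40 to 0.00, adjusted p = 0.14). Without HSC3 DOX replicate 1, the DOX library at the vehicle level, *CASP8* was called lower at -0.28 (adjusted p = 0.0049), and in 1 fit over 12 libraries it was called at -0.19 (adjusted p = 0.047).

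*CFLAR*, which encodes the caspase-8 regulator c-FLIP, fell in CAL27 cells. It was at 53.3, 49.9 and 54.9 CPM with vehicle and at 36.9, 33.1 and 32.9 CPM with DOX, a 1.54-fold fall with no overlap (log2 fold change -0.62, SE 0.051, adjusted p = 3.7e-09). In HSC3 cells it was at 45.2, 45.2 and 47.5 CPM and at 53.3, 47.2 and 47.6 CPM, with overlapping groups (log2 fold change 0.10, 95% interval -0.07 to 0.27, adjusted p = 0.41). Within a library, the ratio of *CFLAR* to *CASP8* counts in CAL27 was 0.636 ± 0.02 with vehicle against 0.412 ± 0.021 with DOX, while HSC3 had 1.06 ± 0.0346 with vehicle against 1.30 ± 0.0435 with DOX (SD, n = 3). These ratios did not overlap between vehicle and DOX in either line, and they went down in CAL27 and up in HSC3. They are described without a test, and neither gene was called in HSC3 when all its libraries were fitted. Exons of *CFLAR* overlapped opposite-strand genes over 10.1% of their length.

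The IAP genes, which are neighbours on chromosome 11 (*BIRC3* from 102317484 to 102339403 and *BIRC2* from 102347211 to 102378670), both fell in CAL27 cells. *BIRC2* was at 80.9, 80.1 and 84.3 CPM with vehicle and at 63.6, 63.0 and 59.4 CPM with DOX, a 1.32-fold fall (log2 fold change -0.40, SE 0.042, adjusted p = 1.2e-07). *BIRC3* was at 51.3, 48.4 and 54.6 CPM with vehicle and at 27.7, 24.7 and 24.2 CPM with DOX, a 2.02-fold fall (log2 fold change -1.01, SE 0.056, adjusted p = 1.6e-11). The groups did not overlap for either gene. The *BIRC3* fold lay at the threshold of 2 and was under it without vehicle replicate 3 or DOX replicate 5 or 6 (log2 fold changes -0.98, -0.99 and -0.97).

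In HSC3 cells *BIRC3* rose with DOX. It was at 13.7, 10.7 and 12.7 CPM with vehicle and at 26.4, 21.9 and 22.9 CPM with DOX, a 1.91-fold rise with no overlap (log2 fold change 0.93, SE 0.12, adjusted p = 0.00018). *BIRC2* was at 104, 102 and 102 CPM and at 126, 95.7 and 106 CPM, and its DOX libraries lay on both sides of the vehicle libraries (log2 fold change 0.08, 95% interval -0.11 to 0.28, adjusted p = 0.55). Without HSC3 DOX replicate 1, its highest library, the log2 fold change of *BIRC2* was -0.023. The ratio of *BIRC3* to *BIRC2* counts in CAL27 was 0.629 ± 0.0225 with vehicle against 0.412 ± 0.0226 with DOX, while HSC3 had 0.12 ± 0.0137 with vehicle against 0.218 ± 0.00947 with DOX (SD, n = 3). The 2 lines were thus further apart with vehicle than with DOX in this ratio. In CPM, *BIRC3* of the DOX libraries overlapped between the lines, at 24.2 to 27.7 in CAL27 and 21.9 to 26.4 in HSC3.

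**Figure D2:**
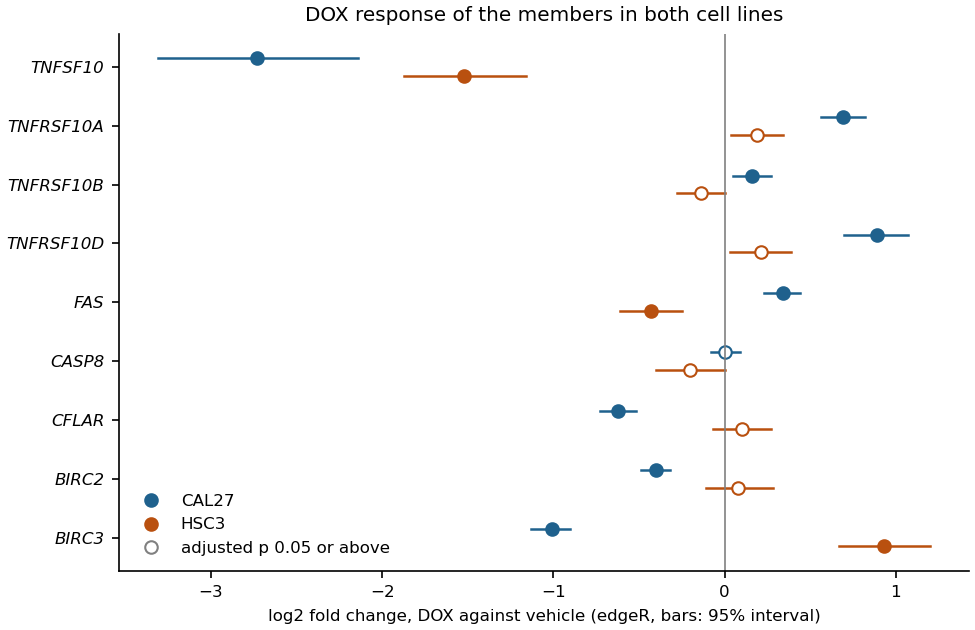
Log2 fold change of each gene with DOX against vehicle (horizontal axis) in CAL27 (blue) and HSC3 (orange), with 95% intervals from the edgeR fits. Filled points had an adjusted p under 0.05 and open points did not. *TNFSF10* was left of 0 in both lines, whereas *FAS* and *BIRC3* had filled points on opposite sides of 0.

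Counted over the 9 genes in CAL27 cells, 4 were called lower (*TNFSF10*, *CFLAR*, *BIRC2* and *BIRC3*) beside 21.8% of all 19239 genes tested, and 4 were called higher (the TRAIL receptor genes and *FAS*) beside 22.6%. With a fold above 2 as well, *TNFSF10* and *BIRC3* were lower (5.11% of all genes) and none of the 9 was higher (1.31%). Vehicle and DOX libraries did not overlap for 8 of the 9 genes, beside 51.8% of all genes. In HSC3 cells 2 were called lower (*TNFSF10* and *FAS*) beside 15.4% of 18021 genes, and *BIRC3* was called higher beside 13.0%. With a fold above 2, *TNFSF10* was lower (4.4%) and none of the 9 was higher (1.58%). The HSC3 groups did not overlap for 6 genes, beside 42.6% of all genes. Without HSC3 DOX replicate 1 the HSC3 counts were 4 lower and 3 higher. Of the 17164 genes tested in both lines, 8.62% were called lower in both, among the 9 only *TNFSF10*. A further 1.19% were called lower in CAL27 and higher in HSC3, as was *BIRC3*, and 2.37% were called higher in CAL27 and lower in HSC3, as was *FAS*.

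The difference of the responses was tested as an interaction over all 12 libraries. It was called for 8 of the 9 genes, with *CASP8* as the exception (log2 difference -0.20, HSC3 minus CAL27, 95% interval -0.41 to 0.01, adjusted p = 0.19). The difference was below 0, lower in HSC3 than in CAL27, for 4 genes, beside 12.3% of 20694 genes tested. These were *TNFRSF10A* at -0.50 (adjusted p = 0.00037), *TNFRSF10B* at -0.29 (adjusted p = 0.018), *TNFRSF10D* at -0.67 (adjusted p = 0.001) and *FAS* at -0.76 (adjusted p = 4.1e-05), all of them receptor genes. It was above 0 for the other 4 genes, beside 8.25% of all genes. Of these, *BIRC3* had the largest difference, 1.95 (SE 0.14, adjusted p = 2.3e-07), followed by *TNFSF10* at 1.21 (adjusted p = 0.0016), *CFLAR* at 0.72 (adjusted p = 7.1e-05) and *BIRC2* at 0.49 (adjusted p = 0.0043). For *TNFSF10* a positive difference means a smaller fall in HSC3. The *TNFRSF10B* difference lost its call without any 1 of 6 libraries, namely CAL27 vehicle replicates 1 and 2, CAL27 DOX replicates 4 and 5 and HSC3 vehicle replicates 1 and 3 (adjusted p from 0.055 to 0.07). Without HSC3 DOX replicate 1 the *CASP8* difference was called (adjusted p = 0.0098).

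At baseline the lines differed in the balance of ligand and receptors. With vehicle, *TNFSF10* was 14.5-fold lower in HSC3 than in CAL27 cells (log2 fold change -3.85, SE 0.18, adjusted p = 3.7e-11). The receptor genes were higher in HSC3, *TNFRSF10A* by 4.57-fold (log2 fold change 2.19, SE 0.060), *TNFRSF10B* by 4.62-fold (2.21, SE 0.061), *TNFRSF10D* by 6.47-fold (2.69, SE 0.091) and *FAS* by 2.28-fold (1.19, SE 0.068), with adjusted p values of 4.1e-10 or less. *BIRC3* was 4.15-fold lower in HSC3 (log2 fold change -2.05, SE 0.10, adjusted p = 5.9e-11) and *CASP8* 1.9-fold lower (-0.93, SE 0.071, adjusted p = 1.2e-08). *CFLAR* (-0.20, adjusted p = 0.019) and *BIRC2* (0.33, adjusted p = 0.0015) differed least. The *CFLAR* call was lost without CAL27 vehicle replicate 3 or HSC3 vehicle replicate 2 (adjusted p = 0.066 and 0.055).

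The baseline calls were thus 4 lower and 5 higher in HSC3 among the 9 genes, beside 32.3% and 30.6% of all 20694 genes. With a fold above 2 they were 2 lower and 4 higher, beside 18.7% and 13.2%. Scaling by library totals in place of TMM moved the median log2 difference of all genes by -0.27, from -0.118 to -0.388, and the calls from 6679 lower and 6341 higher to 8601 and 4785. Under that scaling *BIRC2* was at 0.057 (adjusted p = 0.48) and the other 8 genes kept their direction and their call by adjusted p. By a fold above 2 the counts were then 3 lower and 3 higher, since *CASP8* at -1.20 passed that fold and *FAS* at 0.92 did not. The lines were deposited in separate tables and grown in different media, so cell line, table and medium cannot be told apart. The baseline comparison and the DOX comparisons share the vehicle libraries, and their values are set side by side only.

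Per kilobase of exon, the order of the 9 genes differed between the lines. With vehicle, *TNFSF10* was highest in CAL27 cells at 113 ± 6.52 CPM per kb, followed by *BIRC2* at 18.1 ± 0.49, *CASP8* at 11.4 ± 0.299, *BIRC3* at 6.87 ± 0.416 and *TNFRSF10B* at 6.18 ± 0.0836 (SD, n = 3). The lower genes were *TNFRSF10A* at 3.78, *CFLAR* at 2.34, *TNFRSF10D* at 1.61 and *FAS* at 0.879 CPM per kb. No neighbours in that order overlapped. In HSC3 cells *TNFRSF10B* was highest at 28.6 ± 1.28 CPM per kb, followed by *BIRC2* at 22.7 ± 0.298, *TNFRSF10A* at 17.3 ± 0.476, *TNFRSF10D* at 10.4 ± 0.648 and *TNFSF10* at 7.81 ± 0.5 (SD, n = 3). Then came *CASP8* at 6.01, *CFLAR* at 2.05, *FAS* at 2.01 and *BIRC3* at 1.65 CPM per kb, with overlap between *CFLAR* and *FAS* only. The ligand was thus first in CAL27 and the fifth in HSC3.

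With DOX, *TNFSF10* was at 17.1 ± 4.46 CPM per kb in CAL27 cells and overlapped *BIRC2* at 13.7 ± 0.507. In HSC3 cells with DOX it was at 2.74 ± 0.723 CPM per kb and overlapped both *BIRC3* at 3.17 ± 0.317 and *CFLAR* at 2.2 ± 0.152. The lower places depend on the length used. The annotated exons of *FAS* cover 29313 bases in all and those of *CFLAR* 22478, against 3696 and 14612 in the Ensembl canonical transcripts. By canonical length *FAS* with vehicle was at 6.97 CPM per kb in CAL27, overlapping *BIRC3* at 7.48, and at 15.9 in HSC3, overlapping *CASP8* at 16.4, and *CASP8* was second in CAL27 at 31.2, above *BIRC2* at 21.7. *TNFSF10* in CAL27 and *TNFRSF10B* in HSC3 were first with vehicle by both lengths.

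The counts of the death receptor genes *TNFRSF10A* and *TNFRSF10B* together were 7.42, 6.59 and 8.33 times those of the decoy gene *TNFRSF10D* in CAL27 vehicle libraries and 4.85, 5.30 and 4.82 times in the DOX libraries. In HSC3 the ratio stood at 5.72, 5.02 and 5.08 in the vehicle libraries against 4.66, 4.40 and 4.17 in the DOX libraries. The ratio was lower with DOX in both lines with no overlap, and the CAL27 DOX libraries, at 4.82 to 5.30, overlapped the HSC3 vehicle libraries.

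**Figure D3:**
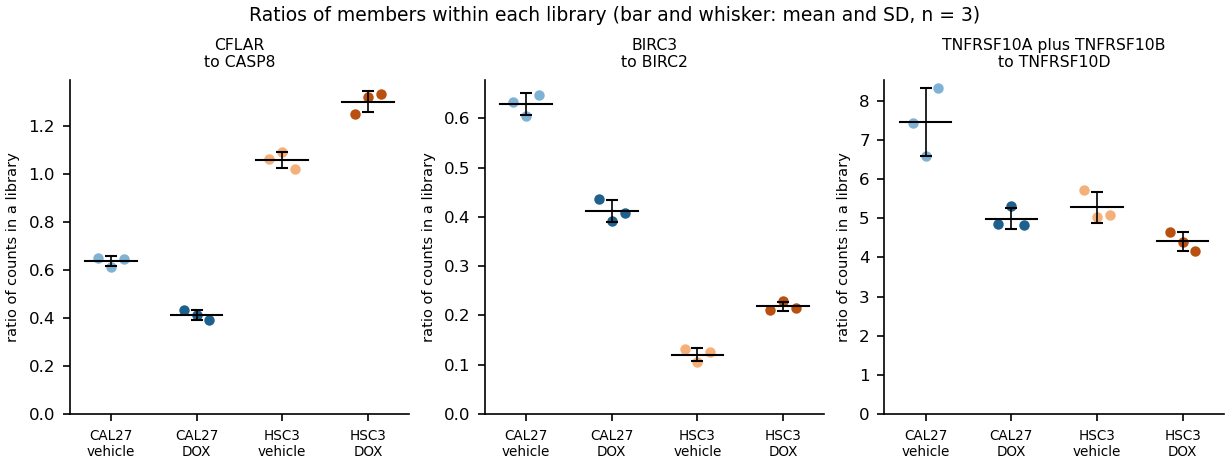
Ratios of counts within each library (vertical axes, linear, from 0) for *CFLAR* to *CASP8*, *BIRC3* to *BIRC2* and *TNFRSF10A* plus *TNFRSF10B* to *TNFRSF10D*. Points are libraries, bars are means and whiskers are SD (n = 3). With DOX the first and the second ratio were lower in CAL27 and higher in HSC3, and the third was lower in both.

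The wider pathway was read from 7 lists with 71 genes, which include the 9. In CAL27 cells 61 of these were tested, 24 were called lower (39.3%, beside 21.8% of all genes) and 12 higher (19.7%, beside 22.6%), with a median log2 fold change of -0.06 against -0.0052 over all genes. Without the 9 genes the counts were 20 lower and 8 higher of 52. In HSC3 cells 63 were tested, 12 were lower (19.0%, beside 15.4% of all genes) and 8 higher (12.7%, beside 13.0%), with a median of 0.04 against -0.0097 over all genes, and without the 9 the counts were 10 lower and 7 higher of 54. Without HSC3 DOX replicate 1 the HSC3 counts over the 7 lists were 15 lower and 14 higher.

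The list counts that follow stand beside 21.8% lower and 22.6% higher among all genes in CAL27, and 15.4% lower and 13.0% higher in HSC3. Among death receptors and decoys, 6 of 9 tested genes were called higher and 2 lower in CAL27, with a median log2 fold change of 0.41. The 6 were *TNFRSF10A*, *TNFRSF10B*, *TNFRSF10D* and *FAS*, which are among the 9 genes described here, and *TNFRSF21* and *TNFRSF12A*, which are not. In HSC3, 1 of 10 (10.0%) was called in each direction. *TNFRSF21* (DR6), a death receptor outside the 9, was called higher in both lines (log2 fold changes 0.57 and 0.52, adjusted p = 4.5e-10 and 0.00033). *TNFRSF12A*, the receptor for TWEAK, was called higher in CAL27 (0.92, adjusted p = 5.6e-10) and was at -0.03 in HSC3. The 2 called lower in CAL27 were *TNFRSF25* (-0.94, adjusted p = 2.8e-07) and *TNFRSF1A* (-0.18, adjusted p = 0.00052). In HSC3 they were at -0.47 and -0.02 and were not called. Among ligands, 2 of 3 tested were lower in CAL27 and 2 of 4 in HSC3. Besides *TNFSF10* these were *TNFSF12* in CAL27 (-0.97, adjusted p = 0.011) and *TNFSF15* in HSC3 (-0.95, adjusted p = 0.0001). *TNFSF12* in CAL27 had 62 to 69 counts with vehicle and 22 to 37 with DOX.

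Among adaptors, initiator caspases and regulators of the complex, 4 of 10 were called lower in CAL27 and 2 of 10 in HSC3, and none was called higher. In CAL27 these included *CFLAR* of the 9 and *CASP10*, the caspase-8 relative (log2 fold change -0.70, adjusted p = 2.6e-09), which was at 0.06 in HSC3. *FADD*, the adaptor of the complex, was at 0.04 and -0.11 and was not called in either line. In the IAP list 3 of 8 genes were lower and 1 was higher in CAL27, and 1 was lower and 2 were higher in HSC3. The 3 lower in CAL27 were *BIRC2* and *BIRC3* of the 9 and *XAF1*. *XAF1*, which encodes an antagonist of XIAP, had the largest fall of the list in both lines. It went from 22.4 to 2.18 CPM in CAL27 (log2 fold change -3.36, SE 0.10, adjusted p = 2.6e-14). In HSC3 it went from 2.00 to 0.318 CPM (-2.65, SE 0.38, adjusted p = 0.00042), on 171 to 278 counts with vehicle and 25 to 70 with DOX.

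Of 8 effector caspase and apoptosome genes, 2 were lower and 1 higher in CAL27, and 1 was lower and 2 were higher in HSC3. Of 16 BCL2 family genes, 5 were lower (31.2%, beside 21.8% of all genes) and 4 higher (25.0%, beside 22.6%) in CAL27, and 3 were lower (18.8%, beside 15.4%) and 2 higher (12.5%, beside 13.0%) in HSC3. *BMF*, a proapoptotic BH3-only gene, rose in HSC3 from 5.06 to 13.3 CPM (log2 fold change 1.39, SE 0.15, adjusted p = 4e-05) and was at -0.14 in CAL27. *BCL2A1*, an antiapoptotic member, fell in CAL27 (-1.14, SE 0.45, adjusted p = 0.047) on 25 to 28 counts with vehicle and 8 to 15 with DOX. Of 7 tested necroptosis and ubiquitin regulators, 6 were lower in CAL27, with a median log2 fold change of -0.16 over the list. In HSC3, 2 were lower and 1 higher, with a median of 0.18. *ZBP1*, a nucleic acid sensor, fell in CAL27 from 1.02 to 0.0785 CPM (-3.74, SE 0.38, adjusted p = 1e-07), with 3 to 14 counts with DOX, and had at most 10 counts in any HSC3 library. *TNFAIP3*, the NF-κB feedback gene that encodes A20, fell in CAL27 (-0.96, adjusted p = 5.2e-13) and was called higher in HSC3 (0.19, adjusted p = 0.038). *BCL2L11* of the BCL2 family list was also called lower in CAL27 (-0.32, adjusted p = 2.2e-06) and higher in HSC3 (0.52, adjusted p = 0.0071). *BIRC3* had the same order of directions, and so did 1.19% of all genes tested in both lines. A shared cause was not tested.

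**Figure D4:**
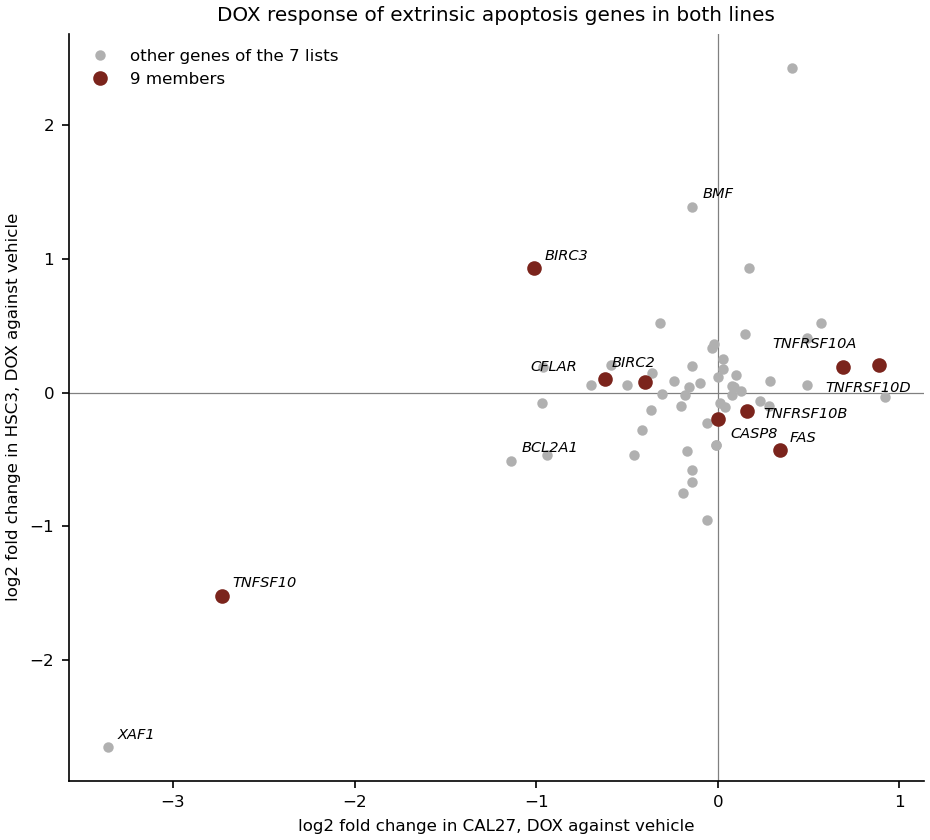
Log2 fold change with DOX in CAL27 (horizontal axis) and HSC3 (vertical axis) for the genes of the 7 lists tested in both lines. Dark red points are the 9 genes and grey points the others. *TNFSF10* lay beside *XAF1* at the lower left and *BIRC3* alone among the 9 at the upper left away from both axes, and the highest grey point is *TNFRSF11B*, which had 2 to 10 counts in HSC3 vehicle libraries and was not called there.

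The genes most like each of the 9 were ranked by the distance between profiles of mean log2 CPM over the 4 groups, each centred on its own mean, among 9234 genes. For *TNFSF10* these were *MX1* at a distance of 0.277, *KRT15* at 0.51 and *IFIT1* at 0.63. *MX1* and *IFIT1* are known as interferon-stimulated genes, and *KRT15* encodes a basal keratin. For *BIRC3* they were *ZNF608* at 0.34, *NPL* at 0.473 and *APOL3* at 0.527, and for *CFLAR* they were *PSME1* at 0.0871, *IFI16* at 0.135 and *RASGEF1A* at 0.149. For *FAS* they were *PLCD3* at 0.0639, *ITPR3* at 0.0805 and *SLC35F6* at 0.0821. For the receptors *TNFRSF10B* and *TNFRSF10D* the nearest were *NIPAL1* at 0.0488 and *SGMS2* at 0.204, for *CASP8* *C20orf27* at 0.0289, and for *BIRC2* *FOSL2* at 0.0348. None of the 9 genes was among the 3 nearest of another. With 4 groups a short distance is easily reached by a gene that changes little, so the distances describe these profiles only.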

How the data were processed

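Total RNA from triplicate cultures was made into TruSeq Stranded mRNA libraries, and the reads were aligned by the authors to GRCh38. The submitters' processing notes name FastQC 0.11.9, STAR 2.7.9a and Subread 2.0.1 with featureCounts. The authors deposited whole-number counts per gene symbol, without normalization, in 1 table for each line. The strand setting, the handling of duplicated reads and the counted annotation are not given in the sources used here. Positions and lengths come from GENCODE v44, which matched 38934 of 39368 symbols. The CAL27 table numbers its DOX columns 4 to 6, whereas the sample titles run from 1 to 3, so these libraries are named by column and no replicate number pairs them with vehicle.

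Counts were fitted in R 4.3.3 with edgeR 4.0.16 (TMM, filterByExpr with a minimum count of 10 and total of 15, robust glmQLFit and glmQLFTest), each line alone for the DOX response and all 12 libraries for the difference and the baseline. The study used DESeq2, which at version 1.42.0 served as an alternative here. Each SE was derived by dividing a log2 fold change by the root of its F statistic. How many counts a molecule gave was estimated from the zeros among genes whose expected count was 8 to 16. The genes named are the 9, *MUC1*, *TNFRSF10C*, list genes called with a fold above 2 in either line, and for each of the 9 the 3 most similar genes (mean log2 CPM 3 or more). All 3 are given for *TNFSF10*, *BIRC3*, *CFLAR* and *FAS*, the nearest for *TNFRSF10B*, *TNFRSF10D*, *CASP8* and *BIRC2*, and those of *TNFRSF10A* are not reported here. *TNFRSF21*, *TNFRSF12A*, *TNFRSF25*, *TNFRSF1A*, *TNFSF12*, *TNFSF15*, *CASP10*, *FADD*, *TNFAIP3*, *BCL2L11* and *TNFRSF11B* were named after their values were seen. The 9 genes and the lists were chosen with earlier results of these data known. Alternatives covered normalization, the filter, the test, the libraries fitted, duplicated counts, the fold threshold, the replicate block, gene length and each library left out. The canonical length was chosen after seeing the data.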

Additional observations from a re-analysis of the deposited data

Results flagged for a closer look

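The DOX response differed between the lines for 8 of the 9 genes by the interaction test (edgeR quasi-likelihood, Benjamini-Hochberg adjusted, 12 libraries), 4 in each direction, beside 12.3% of all 20694 genes lower and 8.25% higher. The log2 difference, HSC3 minus CAL27, was 1.21 for *TNFSF10*, -0.50 for *TNFRSF10A*, -0.29 for *TNFRSF10B*, -0.67 for *TNFRSF10D*, -0.76 for *FAS*, 0.72 for *CFLAR*, 0.49 for *BIRC2* and 1.95 for *BIRC3*. Only for *FAS* and *BIRC3* was each line's own response also called, in opposite directions. *TNFSF10* was called lower in both lines, and the other 5 genes were called in CAL27 alone in the fits of each line.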

How the results depend on the processing

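Of 549 log2 fold changes of the 9 genes under alternatives, 520 kept their direction and side of the threshold, 14 lost the call, 8 gained it and 7 changed sign. The sign changes were in values near 0. *CASP8* in CAL27 was at -0.013 with library totals, at -0.009 with counts per molecule and at -0.02 to 0.021 with 1 library left out, and *BIRC2* in HSC3 was at -0.023 to 0.17 with 1 library left out. *TNFSF10* kept its call in every alternative in both lines (largest adjusted p = 0.0065 in CAL27 and 0.00076 in HSC3), as did *BIRC3* (1.5e-06 and 0.0017). In 1 fit over 12 libraries, genes lower by over 2-fold numbered 568 in place of 984 in CAL27 and 1237 in place of 793 in HSC3, genes higher by over 2-fold in HSC3 545 in place of 284, list genes higher in HSC3 13 in place of 8, and 2 of the 9 were higher in HSC3, as under DESeq2, where it was also 2. With a fold above 1.5, 1848 genes were lower and 714 higher in CAL27, 1514 and 798 in HSC3, and 4399 were higher in HSC3 at baseline. At that fold 2 of the 9 were higher in CAL27 and 1 in HSC3. With 1 library left out, 1 to 2 of the 9 were lower by over 2-fold in CAL27. In HSC3, 2 to 4 of the 9 were lower, 1 to 3 were higher and 5 to 14 list genes were higher. The highest of these counts were reached without DOX replicate 1. Higher by over 2-fold in HSC3 were 0 to 1 of the 9, with *BIRC3* passing that fold without vehicle replicate 1. The cause was not tested, except that fewer libraries were fitted. Longest and canonical transcript lengths moved levels per kb, as described for *FAS* and *CFLAR*.

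In HSC3 no pairing of vehicle and DOX libraries by replicate number was seen (correlations of deviations -0.191, 0.336 and -0.327). With 3 libraries per group these values cannot decide whether the cultures were paired. With the replicate block, 2 of the 9 were lower and 1 higher, as without it, and *TNFSF10* was at -1.54 and *BIRC3* at 0.94. At baseline the block left the counts of the 9 at 4 lower and 5 higher. No paired analysis was possible in CAL27 or for the difference because the CAL27 DOX columns carry no sample's replicate number. Depth limits *TNFRSF10C*, *ZBP1*, *BCL2A1*, *TNFSF12* in CAL27 and *XAF1* in HSC3. Several counts per molecule, if the estimates hold, limit low genes in HSC3 most.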
